A study of Mus musculus with 8 samples.

Results

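The immediate early genes of the AP-1 and EGR families were examined in phagocytes sorted from mouse brains carrying a GL261 glioma. The set held 10 genes, found by symbol in the gene rows: Fos, Fosb, Fosl2, Jun, Junb, Jund, Egr1, Egr2, Egr3 and Atf3. They were 10 of 50763 genes listed, of which 30432 had a read, and all 10 were among the 16608 genes that passed the filter on low counts and were tested. The mouse glioma line GL261, carrying mCherry and EGFP, was implanted in the brain of every host. The collected cells were live, positive for CD45.2 (a leukocyte surface protein) and positive for the tumour's mCherry, and were taken on day 23 from brains broken up into single cells. The hosts were wild-type (WT) C57BL/6 mice or B cell-deficient muMT mice, and each kind received isotype IgG or anti-CTLA-4, which blocks a receptor that restrains T cells. Host and antibody made 4 groups with 2 libraries each. The labels give no age, sex or antibody dose. They do not say whether each library was a separate mouse, and if not, the p-values below reflect only technical spread.

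Immediate early genes are transcribed within minutes of a stimulus without the need for newly made protein, because the factors that switch them on are already in the cell and are activated by phosphorylation. Fos and Jun proteins pair through leucine zippers to form AP-1, which binds DNA at AP-1 and cAMP response element (CRE) sites, while EGR proteins bind GC-rich sites through zinc fingers. In macrophages and microglia these genes respond to growth factors, cytokines and microbial products, and they are also known to be induced while a tissue is being dissociated into single cells. Every library here came from dissociated tissue. No undissociated brain and no handling time per library was used here, so the part of dissociation in the levels and in the differences below was not tested.

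Reads in genes came to 24784639 to 31289104 per library. The share of uniquely mapped reads that were assigned to no gene on the strand counted was 18.6 to 20.8% in the muMT libraries. In WT it was 28.4 to 29.5% under isotype and 33.1 to 33.3% under anti-CTLA-4. Markers of phagocytes were abundant: the summed level of 12 of them lay between 21060 and 25935 CPM (a gene's reads as a share of the library's reads in genes, scaled by the trimmed mean of M-values, TMM). Ighm, the gene disrupted in muMT mice, had 0 reads in all 8 libraries, as had the T cell marker Trac, so Ighm checked neither host label. Markers of other cells moved with the groups. The 10 monocyte markers summed to 3994 to 4015 CPM in muMT anti-CTLA-4 and to 1403 to 1571 CPM in the other groups, but Chil3 (a mean of 1741 CPM) and Fn1 (1366 CPM) made up most of the higher sum and the single markers did not share its order. Chil3, Fn1 and Ccr2 were highest in muMT anti-CTLA-4, Ly6c2, Plac8 and Ms4a4c in WT anti-CTLA-4, and F13a1 in muMT isotype. The 9 microglia markers with a row summed in muMT to 1967 to 2100.5 CPM under isotype and 1396 to 1419 under anti-CTLA-4, and in WT to 1855 to 1859.6 and 1619 to 1669 in turn. The 10 mast cell markers summed in muMT to 59.7 to 59.8 CPM under isotype and 25.6 to 27.6 under anti-CTLA-4, and in WT to 35.4 to 37.1 under isotype and 50.3 to 51.4 under anti-CTLA-4. The 10 fibroblast and mural markers summed in muMT to 432 to 437 CPM under isotype and 141 in both anti-CTLA-4 libraries, and in WT to 282 to 291 under isotype and 195 to 199.96 under anti-CTLA-4. The 10 endothelial markers summed in muMT to 172 to 177 CPM under isotype and 253 to 261 under anti-CTLA-4, and in WT to 286 to 292 and 353 to 363 in turn.

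The start regions of 4 members are printed because they carry the kinds of element through which these genes are known to be switched on. They come from RefSeq (GRCm38.p6, whereas the counts were made on mm39), run 5′ to 3′ on the gene's strand and end at the base before the annotated start, except Egr2, of which 30 bases are shown. Capitals mark TGACG or its complement CGTCA (part of a CRE) and TATAAA in Fos, TGACATCA in Jun, CGTCA in Atf3, and a CArG box, the site of serum response factor (SRF), followed by CGTCA in Egr2. The Fos stretch is chr12:85473770-85473889 on the plus strand, the Jun stretch chr4:95052223-95052342 on the minus strand, the Atf3 stretch chr1:191183334-191183453 on the minus strand, and the Egr2 stretch chr10:67537793-67537822 on the plus strand.
Fos: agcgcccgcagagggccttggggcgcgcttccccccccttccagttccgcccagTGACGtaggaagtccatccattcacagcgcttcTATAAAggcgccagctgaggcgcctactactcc
Jun: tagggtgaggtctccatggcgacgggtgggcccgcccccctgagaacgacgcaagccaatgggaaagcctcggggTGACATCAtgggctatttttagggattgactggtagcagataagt
Atf3: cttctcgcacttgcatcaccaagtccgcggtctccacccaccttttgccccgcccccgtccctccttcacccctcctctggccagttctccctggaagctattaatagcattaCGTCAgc
Egr2: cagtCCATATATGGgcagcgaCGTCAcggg

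Windows of 300 bases (250 before and 50 after an annotated start) were used for 8 of the 10 members, in 12 windows. Egr1 and Egr3 were not searched. Member windows on the chromosome of Egr1 were left out, although the windows of all genes kept it, and no window was used for Egr3. Both strands were searched. TGACG was in 7 of the 12 windows, those of Fos, Fosb, Junb and Atf3 and 3 overlapping windows of Egr2. Of all 32817 windows, 20.8% held it. The full CRE, TGACGTCA, and the AP-1 site, TGANTCA, were in 0 of the 12 and in 1.79% and 7.81% of all windows. The CArG box was in 4 of the 12, all of them Egr2 windows, of which 3 overlap, and in 1.63% of all. The EGR site GCGNGGGCG was in the Fosb and Fosl2 windows and in 5.56% of all, and TATAAA was in those of Fos and Junb and in 13.6% of all. The Jun window held TGACNTCA, a pattern that includes the full CRE, was chosen after the sequences were seen and was in 8.84% of all windows. In Fos the printed TGACG lies 66 to 62 bases before the start and TATAAA 33 to 28 bases before it. In Junb TATAAA is at bases 1 to 6 counted from the start, so it does not lie before it. These matches describe letters in the windows and are not binding sites measured in these cells.

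All 10 genes were expressed in every library, with 307 to 858 reads for the lowest, Egr3, and 29232 to 43112 for Fos. Levels can be compared between genes only per length, here as mean CPM per kilobase of exon (GENCODE M21). On that scale Junb stood at 628 to 750 over the group means, Fos at 475 to 664, Atf3 at 279 to 405 and Fosb at 124 to 149. Fosl2 stood at 73.0 to 106, Jun at 65.3 to 108, Jund at 65.6 to 80.0, Egr2 at 28.1 to 68.9, Egr1 at 15.0 to 22.0 and Egr3 at 2.72 to 7.95. Junb and Fos thus had the highest levels and the 3 EGR genes, with Egr3 last, among the lowest. The ratio of the highest to the lowest group mean was largest for Egr3 (2.93) and Egr2 (2.45) and smallest for Fosb (1.20) and Junb (1.19). Jun had 1.66, Egr1 1.47, Atf3 and Fosl2 1.45, Fos 1.40 and Jund 1.22. Summed over the 10 genes, the level was 4609 to 5303 CPM in all libraries, and the muMT isotype libraries (4963 and 5303) overlapped the WT ones (4609 to 4972).

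**Figure D1:**
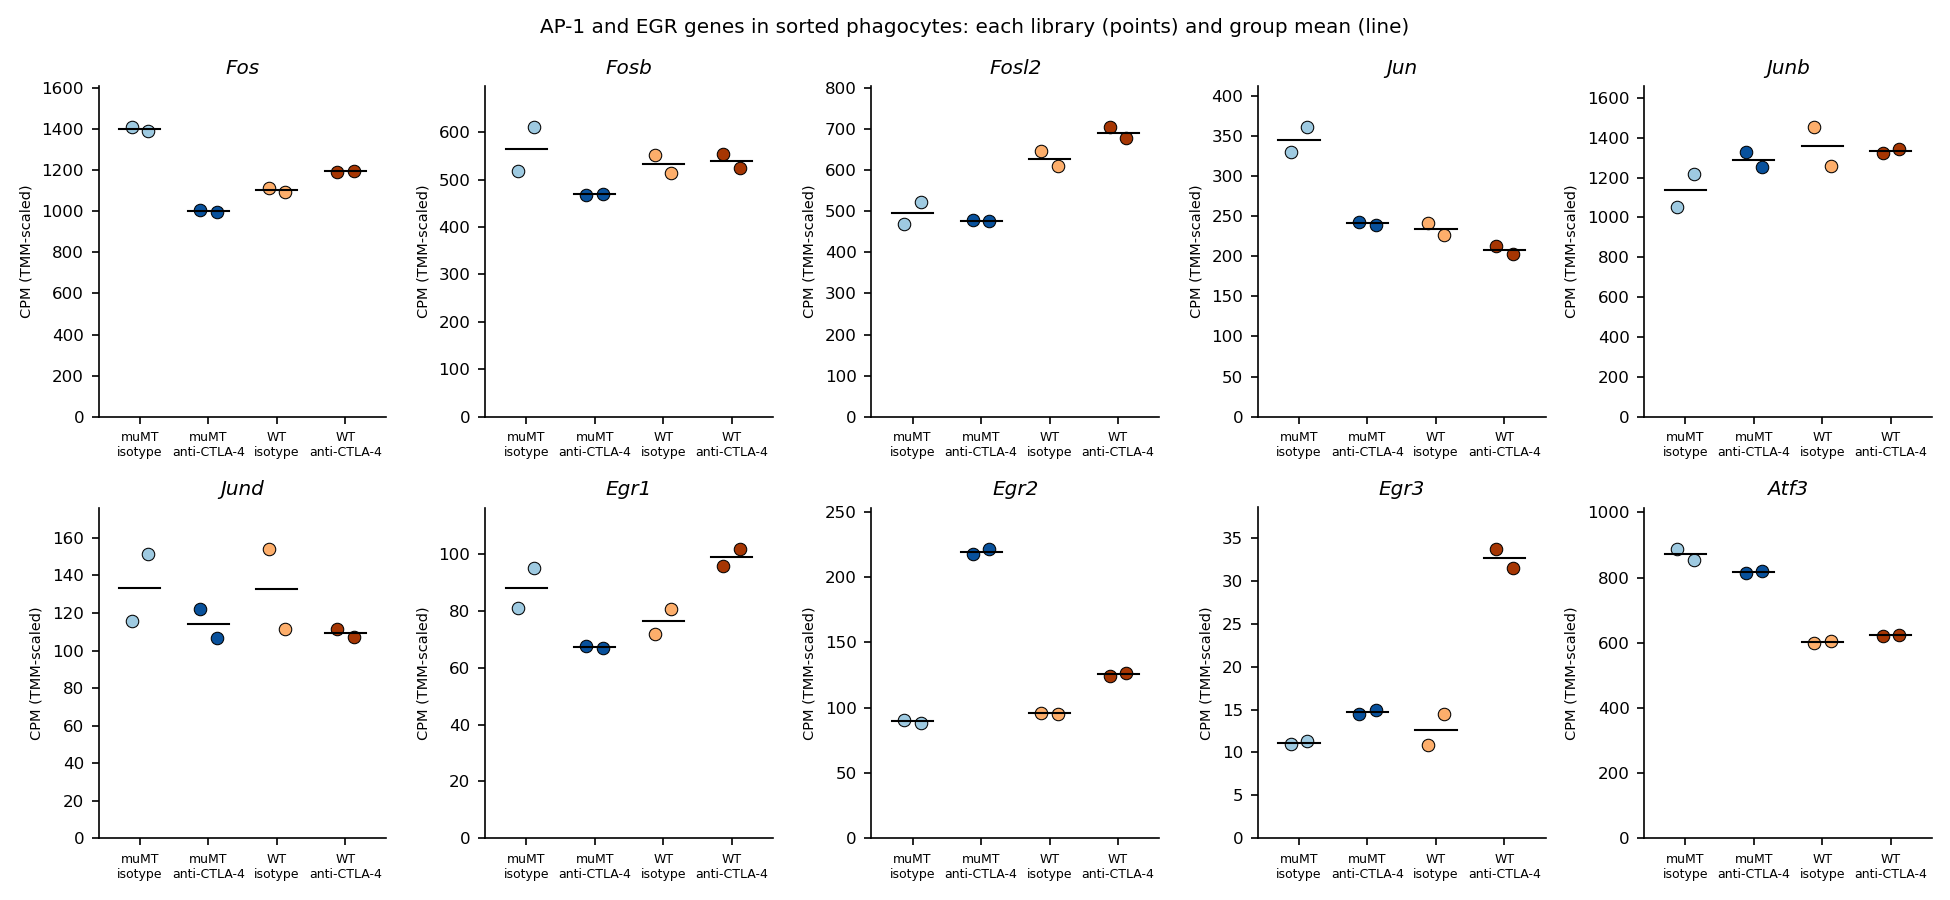
CPM (TMM-scaled, y axis from 0) of each of the 10 genes in the 4 groups; points are the 2 libraries of a group and lines their mean. Egr2 is highest in muMT anti-CTLA-4 (217 and 222 CPM), Egr3 in WT anti-CTLA-4 (33.7 and 31.5), and Jun in muMT isotype (329.9 and 360.4).

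The question of the first comparisons was what CTLA-4 blockade did to these genes in each host. In WT hosts Egr3 (2.57-fold), Egr2 (1.31-fold) and Egr1 (1.30-fold) rose with anti-CTLA-4, Fos (1.08-fold) and Fosl2 (1.10-fold) rose by little, and Jun fell. The count was 5 members higher and 1 lower at a Benjamini-Hochberg adjusted p under 0.05 in edgeR's quasi-likelihood test over all tested genes, where 30.5% of all tested genes were called (14.7% higher and 15.9% lower). In muMT hosts Egr2 (2.45-fold), Egr3 (1.32-fold) and Junb (1.14-fold) rose, while Fos, Fosb, Jun and Egr1 fell. The count there was 3 higher and 4 lower, where 42.5% of all tested genes were called (22.1% higher and 20.4% lower). With upper quartile scaling 39.1% of the genes called in muMT were higher, in place of 52.1%. The members' median log2 fold change was 0.08 in WT and -0.16 in muMT, against -0.00956 and -0.00337 over all tested genes. In bulk RNA, fewer cells of a type and less RNA per cell cannot be told apart.

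The next comparisons set WT against muMT hosts under the same antibody. Under isotype, Fosl2 and Junb were higher in WT, and Fos, Jun, Egr1 and Atf3 were lower in WT. These 2 higher and 4 lower members stood beside 39.2% of all tested genes called (19.9% higher and 19.2% lower). Under anti-CTLA-4, Egr3 (2.22-fold), Egr1 (1.47-fold), Fosl2 (1.45-fold), Fos (1.19-fold) and Fosb (1.15-fold) were higher in WT, and Egr2, Atf3 and Jun were lower. These 5 higher and 3 lower members stood beside 56.1% of all tested genes called (27.4% higher and 28.7% lower). The members' median log2 fold change was -0.04 under isotype and 0.13 under anti-CTLA-4, with -0.01 over all tested genes in both.

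**Figure D2:**
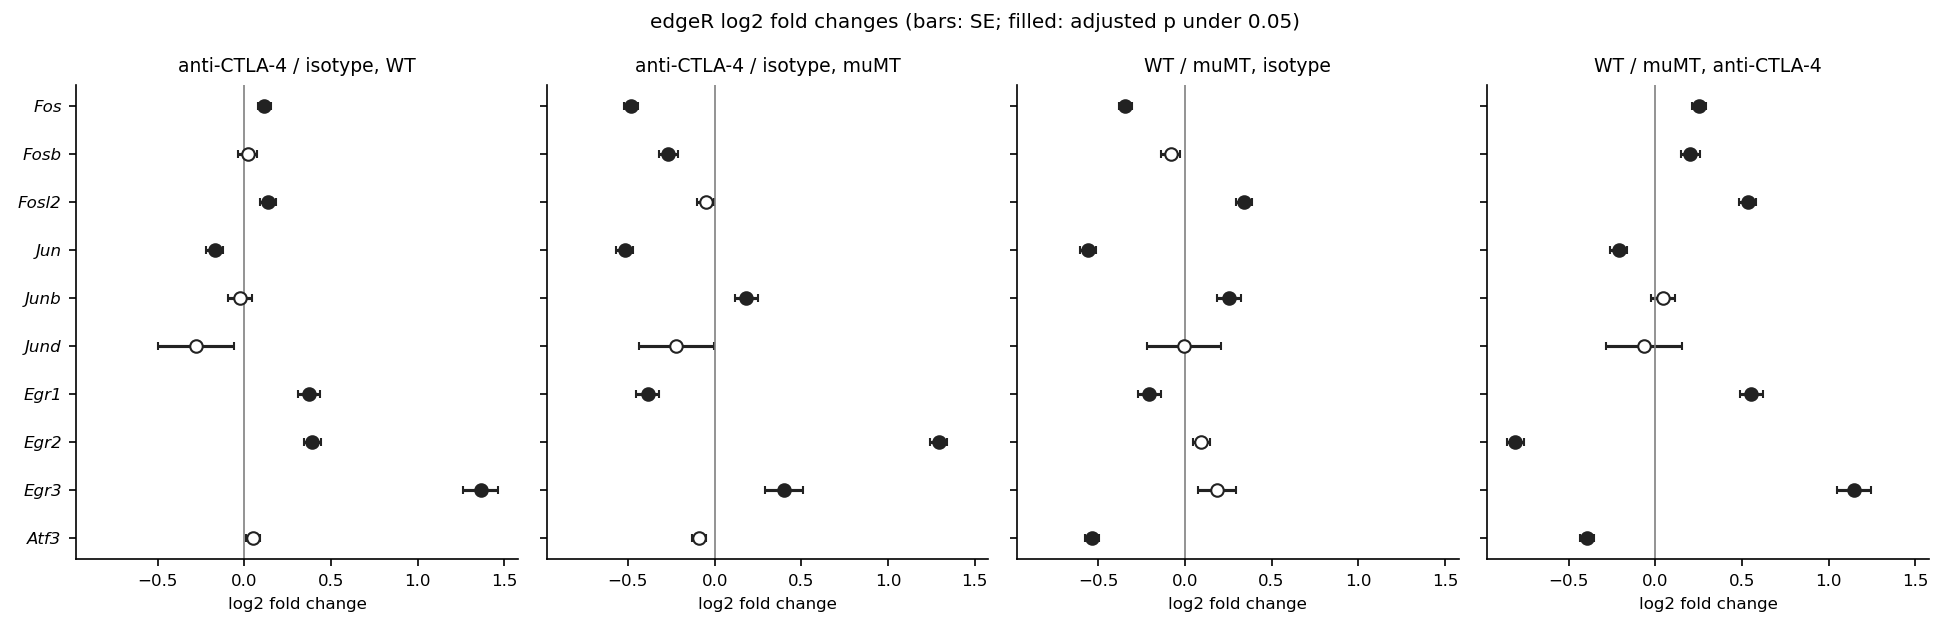
Log2 fold change of each member (x axis, bars are SE, 2 libraries per group) in the 4 pairwise comparisons; filled points have an edgeR adjusted p under 0.05. Jund has the widest bars and no filled point, while Egr2 in muMT (1.29) and Egr3 in WT (1.36) lie farthest to the right under treatment.

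Among the Fos genes, whose products need a partner such as Jun to bind DNA, Fos stood in muMT at 1408 and 1389.7 CPM under isotype and 1008 and 995 under anti-CTLA-4, and in WT at 1112 and 1093 under isotype and 1191 and 1197 under anti-CTLA-4. No 2 groups overlapped, with muMT isotype highest and muMT anti-CTLA-4 lowest. With treatment Fos fell by 0.48 on the log2 scale in muMT (SE 0.04, edgeR adjusted p = 1.98e-11), and in WT it rose by 0.11 (SE 0.04, edgeR adjusted p = 0.0249). WT was below muMT under isotype, by a log2 fold change of -0.34 (edgeR adjusted p = 2.87e-08), and above it under anti-CTLA-4, by 0.25 (edgeR adjusted p = 2.16e-06). The small rise in WT was lost without WT isotype replicate 2 (edgeR adjusted p = 0.0633) or without either WT anti-CTLA-4 library (0.132 without replicate 1 and 0.179 without replicate 2), with library totals in place of TMM (0.0512) and with strand ignored (0.122), and over all alternatives its adjusted p lay between 0.00191 and 0.179.

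Fosb encodes a close relative of Fos whose shortened splice form, delta FosB, lacks the activation domain; forms could not be told apart in counts per gene. It stood in muMT at 518 and 610.1 CPM under isotype and 468 and 469 under anti-CTLA-4, and in WT at 553 and 513 under isotype and 554 and 525 under anti-CTLA-4. Only muMT anti-CTLA-4 lay apart, below the other 3 groups, which overlapped. Fosb fell by 0.27 in muMT (SE 0.06, edgeR adjusted p = 0.000333) and had a log2 fold change of 0.02 in WT (edgeR adjusted p = 0.85). Under anti-CTLA-4 it was higher in WT by 0.20 (edgeR adjusted p = 0.00318, and 0.0629 without WT anti-CTLA-4 replicate 1, with a range of 4.27e-13 to 0.0643 over the alternatives). Fosb reads were 36.8 to 49.7 per 100 Fos reads across the libraries.

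Fosl2, which encodes FRA-2 and is a later and longer-lasting member than Fos in most responses, followed the host rather than the order of Fos. It stood in muMT at 469 and 522 CPM under isotype and 478 and 477 under anti-CTLA-4, and in WT at 646 and 609.6 under isotype and 704 and 677 under anti-CTLA-4. The WT libraries all lay above the muMT libraries, and the muMT groups overlapped each other. The difference between hosts was 0.34 under isotype (SE 0.05, edgeR adjusted p = 8.15e-07) and 0.53 under anti-CTLA-4 (SE 0.05, edgeR adjusted p = 6.12e-11). With treatment it rose by 0.14 in WT (edgeR adjusted p = 0.0253) and had a log2 fold change of -0.05 in muMT (edgeR adjusted p = 0.393). The WT rise was lost without WT isotype replicate 2 (edgeR adjusted p = 0.18) or without either WT anti-CTLA-4 library (0.24 without replicate 1 and 0.0695 without replicate 2) and with strand ignored (0.0875), within a range of 0.000744 to 0.24 over the alternatives.

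Jun, the partner that can form AP-1 with Fos or with itself, stood in muMT at 329.9 and 360.4 CPM under isotype and 243 and 239 under anti-CTLA-4, and in WT at 242 and 227 under isotype and 213 and 203 under anti-CTLA-4. The muMT isotype libraries stood above all others, and muMT anti-CTLA-4 overlapped WT isotype. Jun fell with treatment by 0.52 in muMT (SE 0.05, edgeR adjusted p = 4.2e-10) and by 0.17 in WT (SE 0.05, edgeR adjusted p = 0.00826). It was lower in WT than in muMT under isotype (log2 fold change -0.56, edgeR adjusted p = 1.39e-10) and under anti-CTLA-4 (-0.21, edgeR adjusted p = 0.000562). The WT fall was lost without WT isotype replicate 1 (edgeR adjusted p = 0.104) or replicate 2 of WT anti-CTLA-4 (0.156), within 0.00091 to 0.156 over the alternatives. Markers of microglia moved in the direction of Jun, with 8 lower and 0 higher with treatment in muMT and 5 lower and 1 higher in WT, and so did those of fibroblasts and mural cells, with 9 lower and 0 higher in muMT and 7 lower and 1 higher in WT. Of all tested genes, 22.1% were higher and 20.4% lower with treatment in muMT, and 14.7% higher and 15.9% lower in WT. The part of microglia, fibroblasts and mural cells in the fall of Jun was not tested. Fos reads per 100 Jun reads were 427 and 386 under isotype and 415 and 416 under anti-CTLA-4 in muMT, and 459.98 and 482 under isotype and 559 and 589.6 under anti-CTLA-4 in WT. The treated WT libraries thus had the highest ratio of Fos to Jun reads.

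Junb, which can oppose Jun at some promoters and is itself strongly induced in macrophages, stood in muMT at 1052 and 1219.7 CPM under isotype and 1327 and 1253 under anti-CTLA-4, and in WT at 1452 and 1260.2 under isotype and 1322 and 1345 under anti-CTLA-4. Only muMT isotype lay apart, below the other groups. Junb rose by 0.18 with treatment in muMT (SE 0.07, edgeR adjusted p = 0.0458), and was higher in WT than in muMT under isotype by 0.26 (SE 0.07, edgeR adjusted p = 0.00915). The first call was lost without muMT isotype replicate 1 (edgeR adjusted p = 0.28) or muMT anti-CTLA-4 replicate 1 (0.137), in DESeq2 (Wald adjusted p = 0.205), and without TMM or with upper quartile scaling (0.135 and 0.235 in edgeR), within 6.26e-05 to 0.28. The call between hosts was lost without muMT isotype replicate 1 (0.0812) or WT isotype replicate 1 (0.0941) and in DESeq2 (0.063), within 7.93e-09 to 0.0941.

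Jund, the steadily expressed Jun gene in most tissues, stood in muMT at 116 and 151 CPM under isotype and 122 and 107 under anti-CTLA-4, and in WT at 154 and 112 under isotype and 112 and 107 under anti-CTLA-4. The libraries of each isotype group differed from each other more than the group means did. Jund was called in none of the 5 comparisons by edgeR (smallest adjusted p 0.429, smallest unadjusted p 0.264) or by DESeq2. Its log2 fold change with treatment was -0.28 in WT (SE 0.22) and -0.22 in muMT (SE 0.22), so changes of that size were not detectable with these libraries. Without robust dispersion in edgeR the WT value was called (adjusted p = 0.0336), within a range of 0.0336 to 0.939.

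The EGR genes, which encode zinc finger activators induced through MAP kinases and SRF, differed from each other in pattern. Egr1, the most widely inducible of them, stood in muMT at 81.0 and 94.9 CPM under isotype and 67.7 and 66.8 under anti-CTLA-4, and in WT at 72.0 and 80.5 under isotype and 95.8 and 102 under anti-CTLA-4. No 2 groups overlapped, and treatment went with the lowest Egr1 level in muMT and the highest in WT. Egr1 rose by 0.37 in WT (SE 0.07, edgeR adjusted p = 3.44e-05) and fell by 0.39 in muMT (SE 0.07, edgeR adjusted p = 1.51e-05). WT exceeded muMT under anti-CTLA-4 by 0.55 (edgeR adjusted p = 2.2e-08). Under isotype it was below muMT (log2 fold change -0.21, edgeR adjusted p = 0.0124), a call lost without muMT isotype replicate 2 (0.269) or WT isotype replicate 1 (0.228), within 2.96e-05 to 0.269.

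Egr2, which in macrophages is known as a factor of alternative activation as well as an immediate early gene, stood in muMT at 90.7 and 88.5 CPM under isotype and 217 and 222 under anti-CTLA-4, and in WT at 96.3 and 95.1 under isotype and 124 and 127 under anti-CTLA-4. The untreated groups lay close together, and the treated groups lay above them in both hosts, muMT furthest. Egr2 rose by 1.29 in muMT (SE 0.05, edgeR adjusted p = 2.01e-19) and by 0.39 in WT (SE 0.05, edgeR adjusted p = 1.53e-07). Under anti-CTLA-4 it was lower in WT by a log2 fold change of -0.81 (edgeR adjusted p = 6.56e-15). Under isotype the log2 fold change between hosts was 0.09 (edgeR adjusted p = 0.133). Of the 10 monocyte markers, 7 rose and 1 fell with treatment in muMT, where 22.1% of all tested genes were higher and 20.4% lower. In WT, where the shares were 14.7% and 15.9%, 5 of the markers rose and 3 fell. Their levels did not follow Egr2 as a list: Chil3 had a mean of 1741 CPM in muMT anti-CTLA-4 and 30.1 CPM in WT anti-CTLA-4, while Ly6c2 had 97.2 and 165 CPM and Plac8 86.3 and 157 CPM. The part of monocytes in the Egr2 rise was not tested.

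Egr2 reads needed a check of strand. Reads on the opposite strand of the other 9 members came to at most 1.76% of those on both strands, but at Egr2 to 14.9 to 26.0%. The 734 to 1284 opposite-strand reads per library at Egr2 lay close to the 679 to 1171 reads per library that the neighbouring gene Ado loses when strand is ignored, and Ado runs toward Egr2. Counting by strand, as done here, keeps the genes apart. With strand ignored Egr2 kept its direction and its call in the treatment comparisons of both hosts. Ado itself rose by 0.53 with treatment in muMT (edgeR adjusted p = 7.84e-08) and had a log2 fold change of -0.12 in WT (edgeR adjusted p = 0.181).

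Egr3, known to respond to antigen receptor signals in lymphocytes and the least abundant member here, stood in muMT at 11.0 and 11.3 CPM under isotype and 14.4 and 15.0 under anti-CTLA-4, and in WT at 10.9 and 14.5 under isotype and 33.7 and 31.5 under anti-CTLA-4. The treated WT libraries lay above all others, which fell within 10.9 to 15.0 CPM. Egr3 rose by 1.36 in WT (SE 0.10, edgeR adjusted p = 2.21e-12) and by 0.40 in muMT (SE 0.11, edgeR adjusted p = 0.00331). WT exceeded muMT under anti-CTLA-4 by 1.15 (SE 0.10, edgeR adjusted p = 2.54e-11), and under isotype the log2 fold change was 0.18 (edgeR adjusted p = 0.193). As a family, the EGR genes summed to 179 to 195 CPM under isotype in both hosts, 299.7 to 303 in muMT anti-CTLA-4 and 254 to 259.9 in WT anti-CTLA-4. In muMT anti-CTLA-4 most of that sum was Egr2, and the WT sum held more Egr1 and Egr3.

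Atf3, a stress-induced factor that pairs with Jun proteins and limits inflammatory transcription in macrophages, stood in muMT at 888 and 855 CPM under isotype and 815 and 821 under anti-CTLA-4, and in WT at 599 and 604 under isotype and 622 and 624 under anti-CTLA-4. All muMT libraries lay above all WT libraries. Atf3 was lower in WT under isotype (log2 fold change -0.53, SE 0.04, edgeR adjusted p = 6.08e-12) and under anti-CTLA-4 (-0.39, SE 0.04, edgeR adjusted p = 1.46e-09). With treatment its log2 fold change was 0.05 in WT (edgeR adjusted p = 0.384) and -0.09 in muMT (edgeR adjusted p = 0.0681). The muMT value was called without muMT isotype replicate 2 (0.0302), without WT isotype replicate 1 or 2 (0.0478 and 0.0477) and with upper quartile scaling (0.0012) or library totals (0.0049), but not with DESeq2 size factors in edgeR, within 0.0012 to 0.361.

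The effect of anti-CTLA-4 was then compared between hosts, as the WT effect minus the muMT effect. Of the members, 6 had a higher effect in WT and 1 a lower one, where 37.3% of all tested genes were called (17.5% higher and 19.8% lower). With upper quartile scaling 58.3% of the genes called for the difference were higher, in place of 46.8%. Egr3 had the largest positive difference, 0.96 on the log2 scale (SE 0.15, edgeR adjusted p = 4.83e-06), followed by Egr1 with 0.76 (SE 0.09, edgeR adjusted p = 1.05e-07) and Fos with 0.60 (SE 0.06, edgeR adjusted p = 5.17e-10). Jun differed by 0.35 (SE 0.07, edgeR adjusted p = 0.000177), where the fall in muMT was deeper than that in WT. Egr2 was the exception, with a difference of -0.90 (SE 0.07, edgeR adjusted p = 7.3e-12), since it rose more in muMT. Egr1 and, with the limit given above for WT, Fos were called in opposite directions in the hosts, while Egr2 and Egr3 were called higher in both. By the number of genes called, markers of several other cell types moved with Fos and Egr1. Of the 10 mast cell markers, none of them at 0, 7 rose and 0 fell with treatment in WT, and 0 rose and 7 fell in muMT. Of the 10 endothelial markers, none at 0, 8 rose and 1 fell in WT, and 2 rose and 7 fell in muMT, although their summed level rose in both hosts. Of the 12 T and NK cell markers, with Trac at 0, 11 were tested. In WT 4 rose and 1 fell, and in muMT 0 rose and 4 fell. Their summed level did not rise in WT, with 41.1 to 45.0 CPM under isotype and 41.0 to 41.6 under anti-CTLA-4. In muMT it was 53.3 to 57.8 CPM under isotype and 44.3 to 44.5 under anti-CTLA-4. Of all tested genes, 14.7% were higher and 15.9% lower with treatment in WT, and 22.1% higher and 20.4% lower in muMT. The part of mast, endothelial, T and NK cells in the differences was not tested.

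The differences of Fosb, 0.28 (edgeR adjusted p = 0.00551), and Fosl2, 0.19 (edgeR adjusted p = 0.0243), were smaller. That of Fosb was lost without WT isotype replicate 2 (edgeR adjusted p = 0.0669) and in DESeq2 (Wald adjusted p = 0.0705), within 1.41e-07 to 0.0705. That of Fosl2 was lost without muMT isotype replicate 2 (0.131), without either muMT anti-CTLA-4 replicate (0.0932 and 0.103), without WT isotype replicate 2 (0.0934), without either WT anti-CTLA-4 replicate (0.153 and 0.0518) and with strand ignored (0.0822), within 0.000122 to 0.153. Junb (-0.21, edgeR adjusted p = 0.116), Atf3 (0.14, edgeR adjusted p = 0.0514) and Jund (-0.06, edgeR adjusted p = 0.913) were not called. Of these, Atf3 was called in 7 and Junb in 5 of 17 fits, the edgeR fit reported here included.

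**Figure D3:**
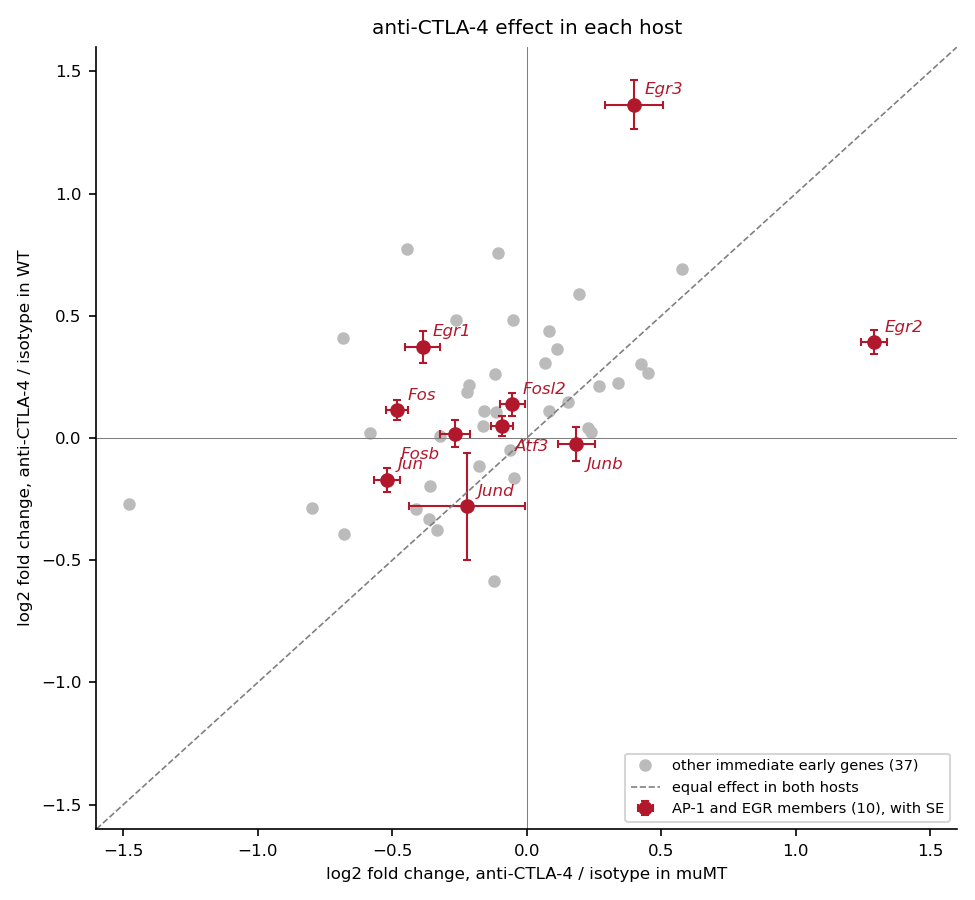
Log2 fold change with anti-CTLA-4 in muMT (x axis) and in WT (y axis); red points are the 10 members with SE bars, grey points 37 other immediate early genes, and the dashed line marks equal effects. Egr1 and Fos lie left of 0 and above 0, Egr3 (0.40 and 1.36) far above the line, and Egr2 (1.29 and 0.39) far below it.

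Of 38 other immediate early genes, 37 were tested (Npas4 was not). With treatment 19 were higher and 8 lower in WT, with a median log2 fold change of 0.11, where 14.7% of all tested genes were higher and 15.9% lower. In muMT 7 were higher and 19 lower, with a median of -0.12, where 22.1% of all tested genes were higher and 20.4% lower. The effect was higher in WT for 21 and lower for 2, where 17.5% of all tested genes were higher and 19.8% lower. Nfkbiz, an inducible regulator of NF-κB target genes, had in WT 526 and 549 CPM under isotype and 916 and 925 under anti-CTLA-4, and in muMT 577 and 596 under isotype and 431 in both anti-CTLA-4 libraries. It rose by 0.78 in WT and fell by 0.45 in muMT, so its groups moved as those of Egr1 did. Klf6, a zinc finger factor of inflammatory macrophages, rose by 0.48 in WT and fell by 0.26 in muMT. Nr4a2, an orphan nuclear receptor, rose in both hosts, by 0.69 and 0.58. Under isotype 7 of these genes were higher and 23 lower in WT, where 19.9% of all tested genes were higher and 19.2% lower. Plk2 (-1.12) and Klf6 (-1.02) were among the lower ones. Under anti-CTLA-4 17 were higher and 15 lower, where 27.4% of all tested genes were higher and 28.7% lower.

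Heat shock genes are known to be induced by protein damage and by tissue handling. Of 18, 2 were higher and 11 lower with treatment in WT (median log2 fold change -0.18), and 7 were higher and 6 lower in muMT (median -0.06). Hspa1a and Hspa1b are near-identical copies of the inducible HSP70 gene, and reads that map to both copies are not counted. They had in WT 251 to 291 CPM under isotype and 132 to 138 under anti-CTLA-4, and in muMT 181 to 195 and 94.6 to 104 in turn. Hspa1a fell by 0.95 in WT and by 0.86 in muMT, and Hspa1b by 1.03 and 0.97. Their fall came with a rise of Egr1 and Fos in WT and with a fall of both in muMT. Jun fell in both hosts, as Hspa1a and Hspa1b did, while Egr2 and Egr3 rose in both. For Hspa1a and Hspa1b the difference between the hosts' effects was -0.09 and -0.07 (edgeR adjusted p = 0.349 and 0.493). These 2 genes did not stand for the list. Of the 18, 3 had a higher effect in WT and 9 a lower one, beside 17.5% and 19.8% of all tested genes. The 4 with the smallest p for the difference were Hspd1 (-0.86), Hspe1 (-0.86), Hsph1 (-0.65) and Stip1 (-0.56). Under isotype Hspa1a and Hspa1b were higher in WT, by 0.47 and 0.57. There Fos, Jun, Egr1 and Atf3 were lower and Fosl2 and Junb were higher.

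**Figure D4:**
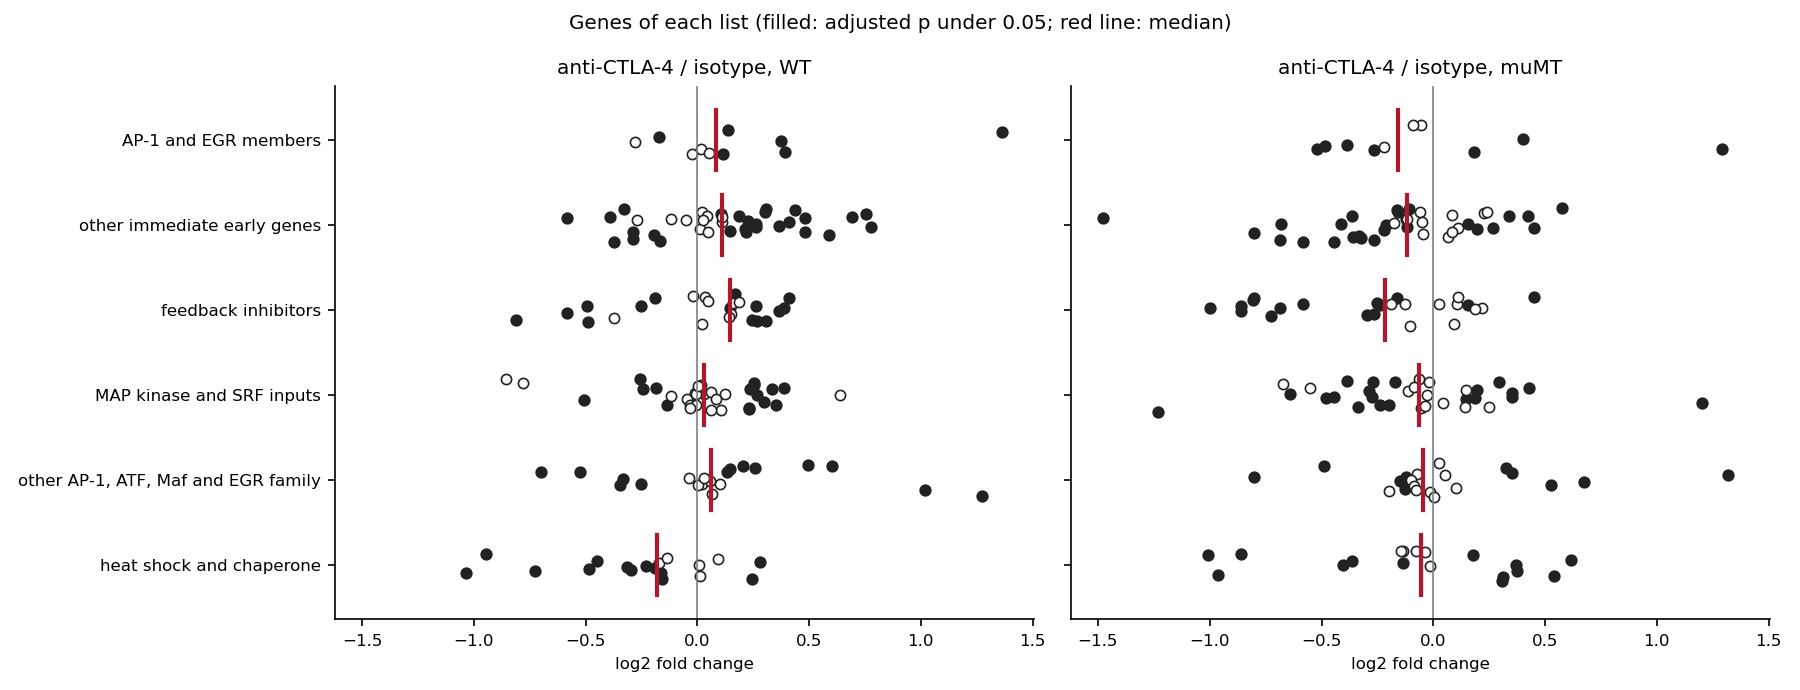
Log2 fold change with anti-CTLA-4 in WT (left) and muMT (right) for the members and 5 lists of related genes; each point is a gene (vertical scatter has no meaning), filled at an edgeR adjusted p under 0.05, with the list median in red. The median of the other immediate early genes is 0.11 in WT and -0.12 in muMT, and that of the heat shock genes -0.18 and -0.06.

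Upstream, 33 genes of the MAP kinase and SRF pathways were all tested. In WT 10 were higher and 5 lower with treatment, beside 14.7% and 15.9% of all tested genes, and in muMT 8 were higher and 12 lower, beside 22.1% and 20.4%. The same shares of all tested genes apply to the treatment counts of the heat shock list and of the lists that follow. Map2k1, which encodes the kinase MEK1 above ERK, rose by 0.35 in both hosts. Mrtfb, an SRF coactivator, rose by 1.20 in muMT, from 25.8 and 27.7 to 60.8 and 62.3 CPM, and by 0.23 in WT, and its effect was lower in WT by a difference of -0.97 (edgeR adjusted p = 1.24e-09).

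Of 24 feedback inhibitors, which shorten MAP kinase signals or block AP-1 and EGR proteins, 9 were higher and 6 lower in WT. In muMT 2 were higher and 13 lower. For the difference 11 were higher and 2 lower, beside 17.5% and 19.8% of all tested genes. Dusp1, a phosphatase of p38 and JNK, had 531 and 552 CPM in muMT isotype and 359 and 363 in muMT anti-CTLA-4, against 449.5 to 481 in the WT libraries. It fell by 0.58 in muMT (edgeR adjusted p = 4.19e-12), in the group in which Fos and Jun fell, and had a log2 fold change of 0.02 in WT (edgeR adjusted p = 0.783). Dusp2 rose by 0.41 in WT and fell by 0.68 in muMT, a difference of 1.09 (edgeR adjusted p = 2.76e-12). Dusp6, a phosphatase of ERK, fell by 0.49 in WT and had a log2 fold change of 0.03 in muMT (edgeR adjusted p = 0.676). Jdp2, whose product pairs with Jun and represses AP-1 sites, fell by 0.80 in muMT and by 0.25 in WT. The feedback list shares genes such as Dusp1 and Dusp2 with the immediate early list, so these counts are not separate.

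Of 22 further AP-1, ATF, Maf and EGR family genes, 20 were tested (Egr4 and Nrl were not). In WT 8 were higher and 5 lower with treatment, and in muMT 5 were higher and 5 lower. Batf3, an AP-1 factor of dendritic cells, moved as Egr2 did in muMT but not in WT: it rose by 1.32 in muMT and fell by 0.70 in WT, over levels of 5.65 to 16.7 CPM. Batf2 rose by 1.02 in WT and by 0.53 in muMT. Atf4, the factor of the integrated stress response, was lower in WT than in muMT under both antibodies (-0.96 and -0.85), as Atf3 was.

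Of 24 genes known as AP-1 or EGR targets, 13 were higher and 5 lower with treatment in WT, and 10 were higher and 8 lower in muMT. Tnf, a cytokine, had in WT 78.4 and 83.5 CPM under isotype and 195 and 200.2 under anti-CTLA-4, and in muMT 240.5 and 242 under isotype and 149 and 161 under anti-CTLA-4. It rose by 1.29 in WT and fell by 0.64 in muMT, in the directions of Egr1 and Fos. Ccl2, a monocyte chemokine, rose in both hosts, by 1.12 in WT and 0.96 in muMT, as Egr2 and Egr3 did. The collagenase gene Mmp13 fell by 1.09 in WT and rose by 0.47 in muMT, and the gelatinase gene Mmp9 fell by 5.40 in WT and by 1.75 in muMT. Hbegf, a growth factor gene, rose by 1.19 in muMT and had a log2 fold change of 0.07 in WT (edgeR adjusted p = 0.511). Under isotype 4 of the targets were higher and 14 lower in WT, beside 19.9% and 19.2% of all tested genes. Tnf (-1.58) and Spp1 (-1.01) were among the lower.

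The genes whose pattern was most like that of 4 members were found among 9729 tested genes of at least 5 CPM, as the root mean square difference of mean-centred log2 CPM over the 8 libraries, which share depth and scaling. For Fos they were Agap1 (0.0413), Syne2, Phaf1, Pla2g7 and Fam234a, where the spread of Fos itself about its mean was 0.177. For Jun, with a spread of 0.276, they were Glul (0.0553), Ldb1, Pfkm, Csnk1e and Rhbdf1. For Egr1, with 0.221, they were Fnip2 (0.0740), Mx2, Ccng2 and Mob3c, and for Atf3, with 0.235, Sap30bp (0.0302), Degs1, Atg12, Cdkn2aip and Map1lc3b. Within the set, the closest pair was Fos and Fosb (0.122), and the farthest was Jun and Egr3 (0.833). None of these genes was on the list of other immediate early genes.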

How the data were processed

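RNA from sorted phagocytes was made into stranded total RNA libraries from which ribosomal RNA was removed, per the labels' protocols. The deposited values were raw read counts per gene, whole numbers as STAR writes them. Per the submitters' processing notes, the authors used cutadapt 5.0, STAR 2.7 and mm39, and DESeq2 1.42.1 is named there too. The gene annotation was not given in the sources used here. Reads mapping to several places are not counted in this layout.

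The reverse-strand counts were used, since their total was 23.3 to 26.5 times the forward total. The 4 summary rows were kept out of library sizes. Counts were scaled by TMM, filtered by filterByExpr and fitted with edgeR 4.0.16 (R 4.3.3, limma 3.58.1), a robust quasi-likelihood fit of 4 group means to 8 libraries with 4 residual degrees of freedom. Benjamini-Hochberg adjustment ran over all 16608 tested genes, and a gene was called at an adjusted p under 0.05 in each of 5 contrasts. SE is the log2 fold change over the square root of F. Within groups, chi-square per degree of freedom was taken between the libraries' counts, where counting error alone gives about 1. Under isotype it was 7.50 in muMT and 4.69 in WT, and under anti-CTLA-4 1.77 and 2.03 in turn. All groups shared the same spread per gene in the fit, so that spread may be too small for the isotype groups. The common coefficient of variation was 4.11%. Alternatives were DESeq2 1.42.0, other scalings, no filter, unstranded counts, no robust dispersion, only the libraries compared, the replicate number as a block, and each library left out. All members were named, together with up to 4 genes per list and comparison with the smallest p and, for Fos, Jun, Egr1 and Atf3, the 5 genes most alike. Some genes beside the members were named in other comparisons than those the rule chose them for. A few named by this rule are not reported here. The members and lists were chosen with earlier results of these data known.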

Additional observations from a re-analysis of the deposited data

Results flagged for a closer look

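For 7 members the effect of anti-CTLA-4 differed between WT and muMT hosts by a test of the difference itself (edgeR's interaction contrast, WT minus muMT, on the log2 scale). The difference was 0.96 for Egr3, 0.76 for Egr1, 0.60 for Fos, 0.35 for Jun, 0.28 for Fosb, 0.19 for Fosl2 and -0.90 for Egr2. Among all tested genes 37.3% were called for this difference. The differences of Egr3, Egr1, Fos, Jun and Egr2 were called in all 17 fits, that of Fosb in 15 and that of Fosl2 in 10. Groups of 2 libraries are too small to look for an outlying library. The libraries of a group do not bear on the mice behind them unless they came from separate animals.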

How the results depend on the processing

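Over the alternatives, the 50 member results (10 genes in 5 comparisons) gave 840 values, of which 768 kept their direction and side of the threshold, 32 lost a call, 23 gained one and 17 changed sign. None of the sign changes was in a called result. The 1916 values of 114 other named results kept direction and call. Those results were the called genes with the smallest p of each list and comparison, so they were chosen for clear calls. Other values of genes beside the members, such as Klf6 in muMT and Mrtfb in WT, were not put through the alternatives. The members called in WT with treatment numbered 6, and 3 without WT anti-CTLA-4 replicate 2 (3 to 6 over the libraries left out), since Fos, Fosl2 and Jun were then not called. Leaving out libraries gave 6 to 8 in muMT, 6 to 8 for the difference, 5 to 6 under isotype and 7 to 8 under anti-CTLA-4.

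The sign changes were in small values. Jund moved to 0.0204 for the difference with upper quartile scaling, and under isotype to 0.0153 with library totals and 0.00255 with no filter. With unstranded counts Fosb in WT moved to -0.0125 and Junb under anti-CTLA-4 to -0.0396. With libraries left out, Jund ranged from -0.275 to 0.187 for the difference, from -0.253 to 0.208 under isotype and from -0.163 to 0.0342 under anti-CTLA-4. Fosb ranged from -0.0324 to 0.0706 in WT and from -0.199 to 0.0383 under isotype, Fosl2 in muMT from -0.119 to 0.0380, Junb in WT from -0.120 to 0.0798, and Egr3 under isotype from -0.0399 to 0.381. Where a library was left out its partner was assumed to vary like the other groups. The cause was not tested.

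With the replicate number as a replicate block all 50 member results kept direction and call, with 6, 7, 7, 6 and 8 members called in the order WT, muMT, difference, isotype and anti-CTLA-4. The numbers do not pair the samples, since deviations of same-numbered libraries correlated at -0.0415 to 0.0166. Egr3, with 307 to 858 reads, is the member whose precision depth limits most.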
